A study of Mus musculus with 11 samples.

Results

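The glands of 8 knockout (KO) mice, 5 Tlr7 KO and 3 Ifnar1 KO, were taken as 1 group and compared with the glands of 3 wild-type (WT) mice. All 11 glands of the series entered this comparison. Every mouse was a male NOD mouse, a strain that develops autoimmune disease by itself. WT mice carried no engineered allele. Tlr7 KO mice carried a 2-base deletion in Tlr7, made with CRISPR/Cas9 in NOD embryos, and Ifnar1 KO mice carried the Ifnar1em16/em16 genotype. WT and Tlr7 KO mice were 20 to 22 weeks old, and the age of the Ifnar1 KO mice was not given in the sources used here. Each knockout is 1 line, and both knockouts were compared with the same 3 WT mice. RNA came from whole glands, 1 library per mouse. The study's methods state that a further Ifnar1 KO mouse was set aside before analysis because its expression and its gland inflammation resembled WT. The knockout group was thus chosen in part by the outcome, and each statement below that knockout and WT mice did not overlap, or that every KO mouse was lower or higher, holds for the 8 mice kept.

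Tlr7 encodes an endosomal receptor for single-stranded RNA, and Ifnar1 encodes a chain of the receptor through which cells sense type I interferon. TLR7 signaling in immune cells is a source of type I interferon, and interferon in turn induces a broad antiviral and antigen presentation program. The lacrimal gland makes the watery layer of tears. Its acinar cells secrete very large amounts of a few proteins, and in male NOD mice lymphocytes gather in it. The pooled comparison asks which genes differed from WT in the same direction whichever of the receptors was missing.

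Levels are given as CPM, counts per 1000000 library counts, with library sizes corrected by edgeR's TMM factors. Of 19058 genes, the 15747 whose counts summed to 30 or more were tested. Between 20512315 and 28814250 counts per mouse were assigned to genes, and the 10 most abundant genes took 54% to 65.9% of them. A floor of 3 counts corresponded to 0.082 to 0.158 CPM across the mice. Salivary gland genes stood out in 3 mice, WT 3 with 1891 CPM of the salivary protein gene Bpifa2, Ifnar1 KO 2 with 1658 CPM and Ifnar1 KO 1 with 135 CPM, against 0.205 to 1.79 CPM in the other 8. Muscle Acta1 was at 85.8 CPM in WT 1, 46 CPM in WT 2 and 77.2 CPM in Tlr7 KO 4, and at 2.76 CPM or less in the others. The water channel gene Aqp5, which acini of lacrimal and salivary glands share, was between 90.3 and 168 CPM in all mice, and so does not tell these glands apart. WT 2 stood apart from the other WT mice, being the lowest WT mouse for 86.8% of the genes at least 2-fold lower in both knockouts and for 45.6% of all genes. Whole glands were sequenced, so that fewer cells of a type and less RNA per cell cannot be told apart.

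The 2 targeted genes were read first. Tlr7 was at 2.94, 1.53 and 2.71 CPM in WT and at 0.251 to 0.947 CPM in KO (median 0.773), with no overlap. It fell in the pooled group (log2 fold change -1.78, SE 0.31, adjusted p = 0.0013, p = 0.0121 in a two-sided exact permutation test, which 8 against 3 mice cannot go below). The Tlr7 KO mice were at 0.495 to 0.947 CPM and the Ifnar1 KO mice at 0.251 to 0.821 CPM, and the test between the knockouts gave an adjusted p of 0.671. Ifnar1 was at 15.1, 10.6 and 15 CPM in WT and at 8.32 to 11.1 CPM in KO (log2 fold change -0.54, SE 0.12, adjusted p = 0.00411). It was at 8.35 to 9.6 CPM in its own knockout and at 8.32 to 11.1 CPM in Tlr7 KO, and the test between the knockouts gave a difference of 0.09 on the log2 scale (adjusted p = 0.84). Ifnar1 lost its call without the 3 mice with salivary gland genes (adjusted p = 0.0704). The transcript of neither gene separated the knockouts from each other, so that it gave no check of the genotype labels.

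A total of 5411 genes had an adjusted p under 0.05 in the pooled test, and all but Mup6 moved in the same direction in both genotypes. Since the pooled test chose these genes and both genotypes were set against the same 3 WT mice, the shared sign is largely fixed by that choice and nothing is read from it. Of the genes tested, 2893 were lower in both knockouts (18.4%) and 2517 were higher in both (16%). A change of at least 2-fold in each genotype was found for 1564 lower genes (9.93%) and for 257 higher genes (1.63%). Of the 257, 40 had all WT mice at the floor. With a summed count of 30 asked of the WT mice alone, 154 genes were at least 2-fold higher. Without WT 1, 971 were at least 2-fold lower. Lower genes changed more. Their median change was -1.25 on the log2 scale (Tlr7 KO -1.15, Ifnar1 KO -1.40), against 0.48 (0.46 and 0.51) for higher genes. Lower genes were also the less abundant, with a median mean level of 2.47 CPM against 17.2 CPM for higher genes and 4.45 CPM for all genes tested. Every KO mouse was below every WT mouse for 848 of the 1564 genes, beside 9.94% of all genes, and above for 200 of the 257, beside 11.5% of all genes. The 1564 genes took 0.701% to 2.44% of counts in WT and 0.187% to 0.575% in KO, whereas the 257 genes took 1.14% to 1.65% in WT and 5.6% to 7.54% in KO. Both sets were chosen by their change in these same mice, so that the separation and the direction of these shares largely follow from that choice. Of the 257, 20.6% were long non-coding genes, against 3.39% of the 1564 and 5.77% of all genes tested.

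The counts depended on the scaling and on single WT mice. With library size only in place of TMM, 4581 genes were lower and 200 higher, and the median over all genes moved on the log2 scale from -0.02 to -0.44, so that 95.8% of called genes were lower in place of 53.5%. Directions below are therefore relative to the bulk of genes, and this choice touches falls and rises alike. Genes at least 2-fold lower went from 1564 to 2751 and those at least 2-fold higher from 257 to 106. Without WT 1, 1666 genes were lower and 1500 higher. Without WT 3, these were 1715 and 1466, and without WT 2 they were 3364 and 3090. Without the 3 mice with salivary gland genes, 1334 were lower and 1246 higher. That fit holds 2 WT mice, 5 Tlr7 KO mice and 1 Ifnar1 KO mouse, so that every direction in Ifnar1 KO there rests on a single mouse, which is assumed to vary like the others.

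**Figure D1:**
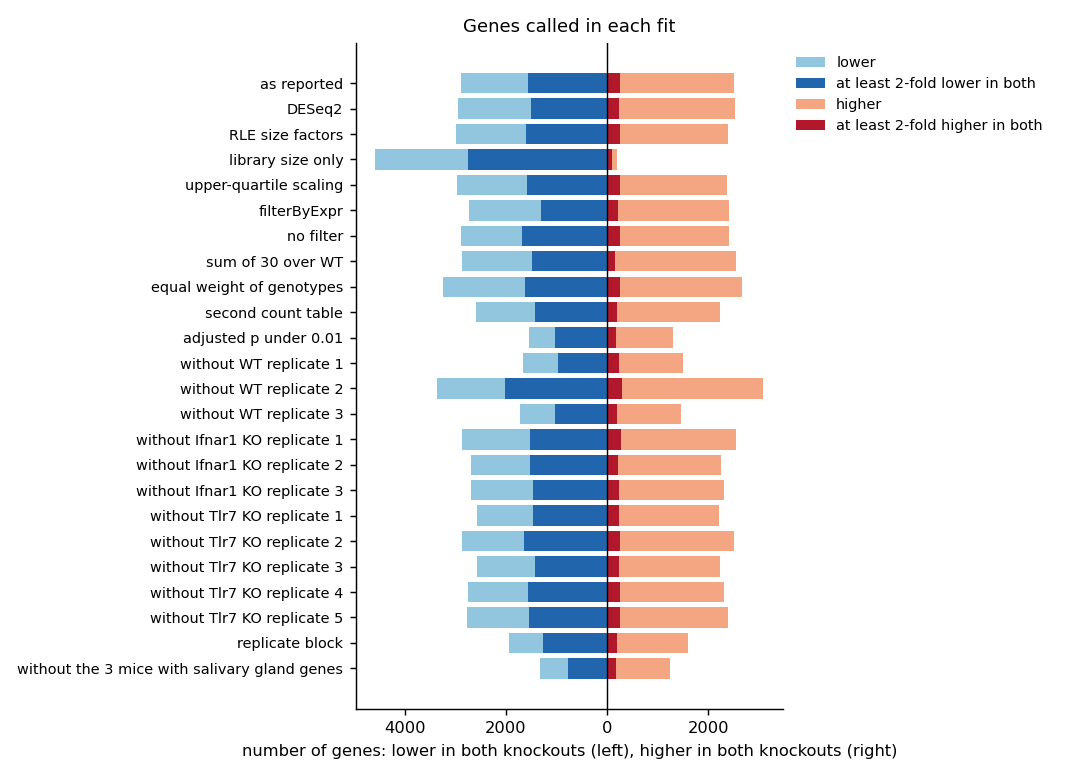
Number of genes called in each fit, with genes lower in both knockouts to the left and genes higher in both to the right of 0. Dark bars are the genes changed at least 2-fold in each genotype. The reported fit has 2893 lower and 2517 higher genes, and scaling by library size only moves the balance to 4581 and 200.

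A few genes changed with very little spread between mice. Slc37a1, which encodes a glucose-6-phosphate transporter of the endoplasmic reticulum, was at 57.2, 71.4 and 55.6 CPM in WT and between 15.5 and 21 CPM in KO (median 16.9). Its log2 fold change of -1.82 (SE 0.10, adjusted p = 2.76e-06) had the lowest adjusted p of all genes tested. Lepr, the leptin receptor gene, was at 3.32, 3.14 and 3.09 CPM in WT and between 9.95 and 14.2 CPM in KO (log2 fold change 1.93, SE 0.13, adjusted p = 1.29e-05). Fmo5, a flavin monooxygenase gene, was at 45.1, 46.7 and 38.8 CPM and rose to between 98.1 and 128 CPM (1.45, SE 0.10, adjusted p = 1.77e-05). The groups did not overlap for any of these 3 genes, and the same held for the transferrin receptor gene Tfrc (29.3 to 38.5 CPM in WT and 66.5 to 110 CPM in KO) and for Tmem176b (80.5 to 129 CPM in WT and 16.4 to 35 CPM in KO). All 5 kept their call under each of the 23 alternatives run. Of all genes, 9.94% were lower and 11.5% higher without overlap. Lepr, Fmo5, Tfrc and Tmem176b were chosen after their values were seen, as was Slc37a1.

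**Figure D2:**
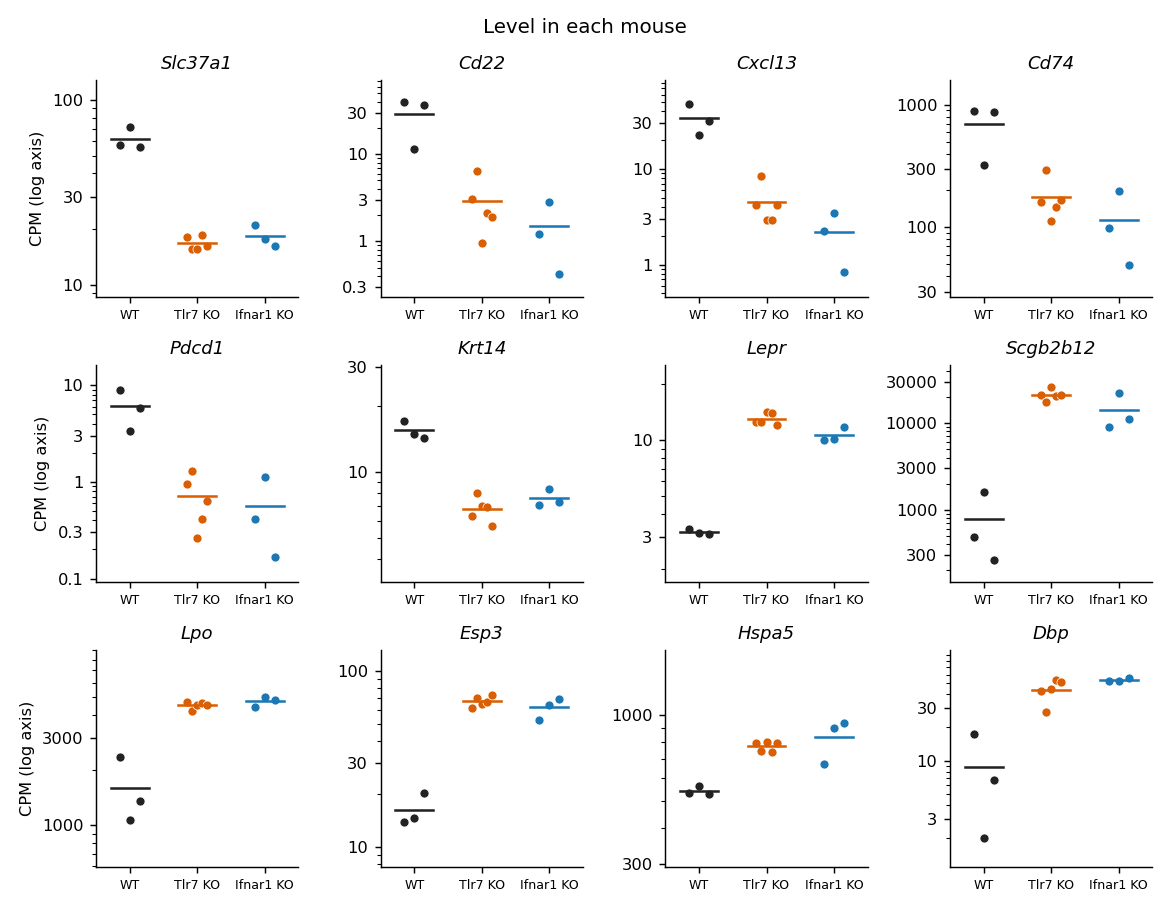
CPM of 12 genes in each mouse on a log axis, with 1 point per mouse and a bar at the mean of each genotype. Slc37a1 lies between 55.6 and 71.4 CPM in WT and between 15.5 and 21 CPM in KO, and the 8 knockout mice do not overlap the 3 WT mice for any of the 12 genes. Of all genes tested, 9.94% were lower and 11.5% higher without overlap.

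In the reported pooled fit, though not in each genotype alone, B cell genes had the lowest median of the gene lists. All 20 tested members were lower in both knockouts, where 18.4% of all genes were. For 19 every KO mouse was below every WT mouse, as for 9.94% of all genes. The list's median log2 fold change was -3.58 (Tlr7 KO -3.29, Ifnar1 KO -4.23), against -0.02 for all genes. Summed over the list, WT mice had 138 to 484 CPM, Tlr7 KO mice 14.5 to 88.5 CPM and Ifnar1 KO mice 4.76 to 37.9 CPM. Cd79a, which encodes a signaling chain of the B cell receptor, was at 94.6, 25.6 and 82.5 CPM in WT and between 1.29 and 16.6 CPM in KO (median 4.3; log2 fold change -3.55, SE 0.54, adjusted p = 0.000801). Ms4a1, encoding CD20, was at 23.7, 7.35 and 21.4 CPM against 0 to 4.77 CPM (-3.65, SE 0.65, adjusted p = 0.0016). WT 2 was the lowest WT mouse for both, yet remained above every KO mouse.

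The 10 largest falls were picked by rule from the same values. They were mostly members of the B cell list above and so are no separate support for it. Cxcr5, the receptor by which B cells and follicular helper T cells follow Cxcl13, was at 17.8, 6.37 and 12.7 CPM in WT and between 0.0418 and 2.82 CPM in KO (log2 fold change -3.91, SE 0.61, adjusted p = 0.000869). Cd22, an inhibitory lectin of B cells, was at 39.9, 11.4 and 36.9 CPM against 0.418 to 6.5 CPM (-3.64, SE 0.52, adjusted p = 0.000602). Bank1, Fcmr, Fcrl1, Fcrla and Ms4a1 are the other B cell genes among the 10, with log2 fold changes of -3.65 to -3.83. The remaining members were H2-Ob (-3.98), encoding a chain of the MHC class II modulator expressed in B cells, the carbohydrate sulfotransferase gene Chst3 (-3.81) and the lipoxygenase gene Alox12e (-3.66). Alox12e was at 13.5, 6.63 and 20 CPM in WT and between 0.0418 and 1.86 CPM in KO. Ebf1, a transcription factor gene of B cells that stromal cells also use, changed less (7.19, 3.4 and 5 CPM in WT and 0.72 to 1.38 CPM in KO, log2 fold change -2.28, SE 0.23, adjusted p = 0.00012). All 20 B cell genes were called without WT 1, without WT 2 and without WT 3, and 19 without the 3 mice with salivary gland genes.

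Genes of the antibody-secreting stage depended on the scaling. Of 12 plasma cell genes, 4 fell and 4 rose, whereas with library size only 6 fell and none of the 4 rises was called. Of all genes tested 18.4% were lower and 16% higher, and with library size only 4581 of 15747 were lower. Those that fell were Mzb1, Pou2af1, Irf4 and Slamf7, and those that rose were Sdc1, Derl3, Eaf2 and Txndc5, of which Derl3 and Txndc5 serve protein folding in any secretory cell. Mzb1, a chaperone gene of marginal zone B and plasma cells, was at 15.2, 9.39 and 11.7 CPM in WT and between 2.58 and 7.69 CPM in KO (log2 fold change -1.57, SE 0.25, adjusted p = 0.00101). Sdc1, which encodes a surface proteoglycan of plasma cells and epithelium, was at 12.5, 13.8 and 11.5 CPM against 17.3 to 25.2 CPM (0.71, SE 0.12, adjusted p = 0.00104), and lost its call with library size only (0.32, adjusted p = 0.279). Without WT 1 the calls were Mzb1, Pou2af1 and Slamf7 lower and Sdc1 and Derl3 higher.

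Immunoglobulin constant genes were lower in 6 of 9 cases (median log2 fold change -2.30). Ighm, the IgM heavy chain gene, was at 335, 221 and 300 CPM in WT and between 2.67 and 85.2 CPM in KO (median 37.8; -2.80, SE 0.56, adjusted p = 0.0028). Igha, the IgA gene, was the most abundant heavy chain gene and was at 1276, 989 and 1163 CPM in WT, 395 to 735 CPM in Tlr7 KO and 835 to 1549 CPM in Ifnar1 KO (log2 fold change -0.51, SE 0.30, adjusted p = 0.211). Igha, Ighg1 and Ighe were the members not called, and without Ifnar1 KO 2 Igha was called too (-0.72, adjusted p = 0.0266). Of 167 immunoglobulin variable genes 32 were lower and none was higher, at 19.2% close to the 18.4% of all genes. Reads of these near-identical segments could be divided among several genes by the estimation, so that single members are uncertain. Without WT 1, the constant genes called were Ighm, Ighg2b, Ighg3 and Iglc2, and without WT 3 Ighm, Ighg3 and Iglc2.

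T cell genes fell in 23 of 25 cases, beside 18.4% of all genes, at a median of -2.17 on the log2 scale (Tlr7 KO -1.89, Ifnar1 KO -2.74). Their summed level was 56.9 to 177 CPM in WT, 14.6 to 67.8 CPM in Tlr7 KO and 5.39 to 32.3 CPM in Ifnar1 KO, so that the groups overlapped through WT 2 and Tlr7 KO 2. Cd3e, a chain of the T cell receptor complex, was at 6.23, 1.95 and 6.01 CPM in WT and between 0.0835 and 2.64 CPM in KO (log2 fold change -2.19, SE 0.55, adjusted p = 0.00902). Cd4 was at 22.6, 7.48 and 14.2 CPM against 0.585 to 7.5 CPM (-2.27, SE 0.52, adjusted p = 0.00589). Cd8a was at 2.81, 0.51 and 2.52 CPM against 0.0418 to 1.21 CPM (-1.81, SE 0.59, adjusted p = 0.0314). Tlr7 KO 2, the highest KO mouse, was above WT 2 for all 3 markers.

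Pdcd1, the gene of the inhibitory receptor PD-1, was at 9, 3.36 and 5.85 CPM in WT and between 0.167 and 1.3 CPM in KO (log2 fold change -3.20, SE 0.44, adjusted p = 0.000536). Il21, a cytokine gene of follicular helper T cells that was counted with the chemokine and lymphotoxin genes, had 54, 10 and 28 counts in the WT mice, 1 count in each of 3 Tlr7 KO mice and none in the other 5 knockout mice (adjusted p = 0.000238). Foxp3, the transcription factor gene of regulatory T cells, and Cd8b1 were the T cell genes not called, with 0.68 to 1.88 CPM in WT and 0.125 to 2.21 CPM in KO for Foxp3 (log2 fold change -1.09, SE 0.68, adjusted p = 0.232). Without Tlr7 KO 2 both were called, Foxp3 at -1.73 (adjusted p = 0.0203) and Cd8b1 at -2.55 (adjusted p = 0.00951). The T cell count depended on single mice of both groups. It was 25 without Tlr7 KO 2, 24 without WT 2, 8 without WT 1, 13 without WT 3 and 4 (Cd4, Cd2, Pdcd1 and Tigit) without the 3 mice with salivary gland genes. Cd8a was among those lost, with an adjusted p of 0.154 without WT 1 and 0.133 without WT 3, and so was Cd3e, with 0.0511 and 0.0507.

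Cytotoxic and natural killer cell genes were lower in 11 of 14 cases (median log2 fold change -2.12), where 18.4% of all genes were. Eomes, a transcription factor gene of these cells, was at 1.4, 0.467 and 1.37 CPM in WT and between 0.0418 and 0.39 CPM in KO (log2 fold change -2.25, SE 0.52, adjusted p = 0.00587). Only Gzmk, Klrb1c, Eomes and Xcl1 were called without WT 1, Gzmk, Ccl5 and Eomes without WT 3, and Gzmk alone without the 3 mice with salivary gland genes. Dendritic cell genes were lower in 9 of 14 cases (median -1.56), read against the same share, of which Flt3 alone was called without WT 1 and without the 3 mice with salivary gland genes.

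Genes that draw lymphocytes into tissue fell together. Of 14 lymphoid chemokine and lymphotoxin genes 13 were lower (median log2 fold change -2.95), beside 18.4% of all genes, and Ltbr, the lymphotoxin receptor gene of stromal cells, was the member not called (16.7 to 21.8 CPM in WT and 19.4 to 26.2 CPM in KO), though it was called higher without WT 2 (0.32, adjusted p = 0.0264). Cxcl13, the B cell chemokine of lymphoid follicles, was at 47.6, 22.7 and 31.4 CPM in WT and between 0.835 and 8.37 CPM in KO (median 3.21; -3.22, SE 0.39, adjusted p = 0.000332). Cxcr4, the receptor for Cxcl12, was at 19.3, 13.3 and 17.7 CPM against 0.376 to 3.06 CPM (-3.28, SE 0.33, adjusted p = 0.000137), while Cxcl12 itself changed less (17.8, 15.8 and 18.3 CPM against 6.65 to 15.2 CPM, -0.80, SE 0.19, adjusted p = 0.00629). Ccl20, which attracts Ccr6-bearing lymphocytes, was at 3.59, 3.57 and 6.56 CPM against 0.165 to 0.765 CPM (-3.44, SE 0.33, adjusted p = 9.51e-05). For all 4 genes every KO mouse was below every WT mouse, as for 9.94% of all genes. Counts of this list were 9 without WT 1, 9 without WT 3 and 7 without the 3 mice with salivary gland genes.

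Vessel genes were lower in part. Of 13 venule and endothelial adhesion genes 8 were lower (median log2 fold change -1.53), beside 18.4% of all genes. Glycam1, a sulfated ligand of high endothelial venules for the homing receptor of lymphocytes, was at 7.43, 4.12 and 7.93 CPM in WT and between 0.0418 and 2.18 CPM in KO (-2.68, SE 0.66, adjusted p = 0.0087). Vcam1 was at 22, 12.7 and 23 CPM against 0.668 to 7.63 CPM (-2.58, SE 0.42, adjusted p = 0.00101) and Icam1 at 12.2, 4.88 and 12.9 CPM against 0.752 to 4.08 CPM (-1.97, SE 0.37, adjusted p = 0.00202). Neither overlapped. Pecam1, a general endothelial gene, changed less (17.2, 8.58 and 15.8 CPM against 2.51 to 6.68 CPM, -1.53, SE 0.25, adjusted p = 0.00111). Of the 5 members not called 3 had positive values, among them the endothelial growth factor receptor gene Kdr (2.33, 1.23 and 1.91 CPM against 1.63 to 4.66 CPM, 0.63, SE 0.33, adjusted p = 0.166) and Vwf, the gene of von Willebrand factor (15.9, 16.9 and 16.7 CPM against 12.5 to 26.8 CPM, 0.23, SE 0.22, adjusted p = 0.445).

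Antigen presentation genes were lower throughout. All 10 MHC class II genes (median log2 fold change -2.28) and all 14 MHC class I genes (median -1.93) were called lower, as were 18.4% of all genes. Cd74, the invariant chain that escorts class II molecules, was at 886, 322 and 877 CPM in WT and between 49.3 and 292 CPM in KO (median 153; -2.18, SE 0.40, adjusted p = 0.00176). H2-Aa was at 420, 176 and 400 CPM against 20.9 to 144 CPM (-2.16, SE 0.41, adjusted p = 0.00207). H2-K1, a classical class I heavy chain gene, was at 275, 113 and 293 CPM against 10.8 to 132 CPM (-2.04, SE 0.50, adjusted p = 0.00848), and here Tlr7 KO 2 was above WT 2. B2m, the shared light chain, was at 767, 362 and 690 CPM against 90.2 to 501 CPM (-1.33, SE 0.40, adjusted p = 0.0231), again with an overlap.

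Members of both classes lost calls when mice were left out, while the medians moved little. They were -2.02 for class II and -1.73 for class I without WT 1, and -2.16 and -1.74 without WT 3. Of the class II genes 9 remained called without WT 1, without WT 3 and without the 3 mice with salivary gland genes, Ctss being the exception each time. Of the class I genes 9 were called without WT 1, 8 without WT 3 and H2-Q6 alone without the 3 mice with salivary gland genes. The adjusted p of B2m was 0.111 without WT 1 and 0.09 without WT 3. In the wider families, 26 of 28 histocompatibility genes and 7 of 7 guanylate binding protein genes were lower, beside 18.4% of all genes.

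Of 18 macrophage and monocyte genes 8 were lower and Mertk was higher, and the list's median was -0.88 on the log2 scale (Tlr7 KO -0.63, Ifnar1 KO -1.61), beside 18.4% of all genes lower. With the genotypes kept as separate groups and weighted equally, or with library size only, 14 of the 18 were lower. C1qa, a complement gene that tissue macrophages make, was at 79.7, 48.8 and 66.8 CPM in WT and between 8.31 and 33.3 CPM in KO (-1.56, SE 0.32, adjusted p = 0.00325). Adgre1, encoding F4/80, overlapped between groups (10.5, 5.99 and 8.45 CPM against 2.09 to 8.11 CPM, -0.59, SE 0.33, adjusted p = 0.183), and was called with the genotypes weighted equally (-0.77, adjusted p = 0.0289) and with library size only (-1.10, adjusted p = 0.0257). Mertk, a receptor with which macrophages take up dying cells, was at 5.2, 5.18 and 4.18 CPM against 6.03 to 8.1 CPM (0.53, SE 0.12, adjusted p = 0.00534) and lost its call with library size only (0.12, adjusted p = 0.689). The macrophage calls without WT 1 were Csf1r, C1qa, C1qb, Cd14 and Cybb lower and Mertk higher. Of 12 complement genes 10 were lower (median -1.17). C3, the central complement component, was at 174, 92.3 and 158 CPM against 25.5 to 64.1 CPM (-1.68, SE 0.24, adjusted p = 0.000576), and 6 members of the list were called without WT 1, without WT 3 and without the 3 mice with salivary gland genes. Neutrophil and mast cell genes showed 1 call in 8, Kit, a share below that of all genes.

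**Figure D3:**
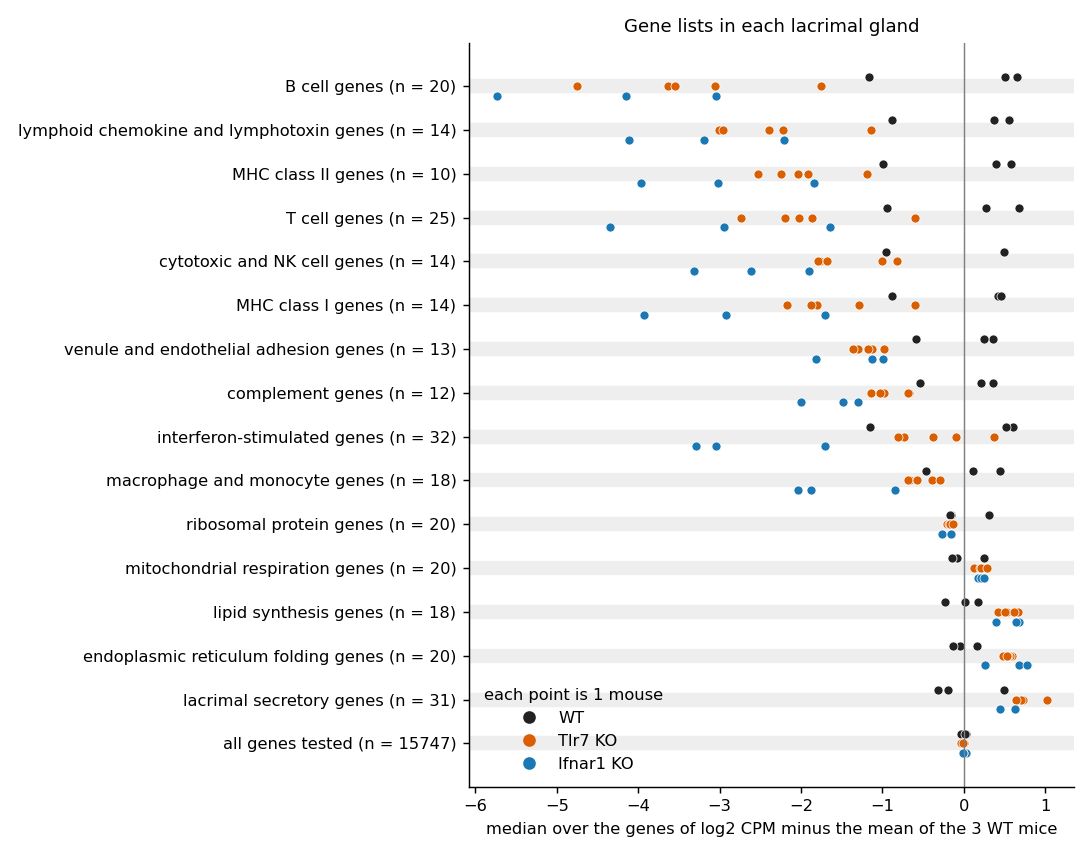
Median level of each gene list in each mouse, as log2 CPM minus the mean of the 3 WT mice, with n genes per list. All knockout mice lie below the WT mice for the B cell list, whereas the median over all genes tested stays near 0 in every mouse.

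The call of the interferon-stimulated genes depended on how the genotypes were fitted and weighted. With each mouse counted alike, 3 of 32 were lower in both knockouts (9.38%, against 18.4% of all genes), Zbp1 and Trim30a among them. With the genotypes kept as separate groups and weighted equally, 25 of 32 were lower (median -1.72 on the log2 scale), and with library size only 15 were. The equal-weight fit also leaves the difference between the knockouts out of the spread, and the part of the weighting alone was not tested. Their pooled median of -0.99 (log2) joined a median of -0.49 for Tlr7 KO with -2.88 for Ifnar1 KO. Against WT, 30 members had an adjusted p under 0.05 in Ifnar1 KO and only Ifi27, which was higher, in Tlr7 KO, and the knockouts differed from each other for 8 of the 32 by the test of that difference. Irf7, a transcription factor gene of the interferon response, was at 30.3, 10.3 and 30.5 CPM in WT, 11.6 to 32.8 CPM in Tlr7 KO and 0.835 to 2.39 CPM in Ifnar1 KO (difference between knockouts 3.66 on the log2 scale, adjusted p = 0.0163). Ifit3 was at 16.6, 2.93 and 18.7 CPM in WT, 4.99 to 12.3 CPM in Tlr7 KO and 0.668 to 1.42 CPM in Ifnar1 KO (difference 3.01, adjusted p = 0.0481).

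Trim30a, a gene of the tripartite motif family, was at 6.54, 1.44 and 7.49 CPM in WT and between 0.376 and 3.17 CPM in KO (log2 fold change -1.64, SE 0.55, adjusted p = 0.0352), with an overlap. Neither Zbp1 nor Trim30a was called without WT 1 (adjusted p = 0.182 and 0.134) or without WT 3 (0.135 and 0.185). Gbp2, encoding a GTPase induced by interferons of both types, was at 44, 16.4 and 46.4 CPM against 0.835 to 18.7 CPM (-2.29, SE 0.60, adjusted p = 0.0116), with adjusted p of 0.0512 without WT 1 and 0.0578 without WT 3. Of the pathway that the receptors belong to, 7 of 14 genes were lower (18.4% of all genes) and none was higher. The targeted genes Tlr7 and Ifnar1 are counted in the 7. Also among them were Unc93b1, the chaperone that brings TLR7 to endosomes (44.5, 17 and 41.3 CPM in WT and 4.93 to 17 CPM in KO, -1.66, SE 0.29, adjusted p = 0.00145), and the transcription factor gene Irf5 (11.1, 3.61 and 9.51 CPM against 0.835 to 3.82 CPM, -1.96, SE 0.35, adjusted p = 0.00163).

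**Figure D4:**
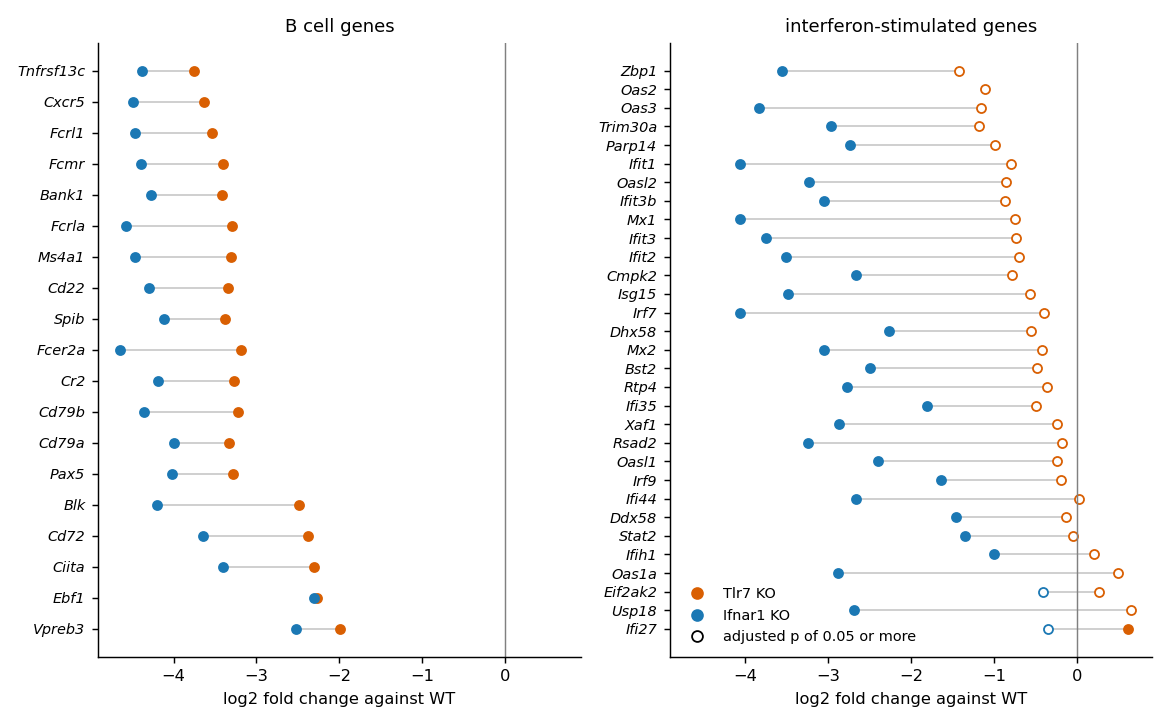
Log2 fold change against WT of genes of 2 lists in Tlr7 KO and in Ifnar1 KO, with open circles where the adjusted p was 0.05 or more. The B cell genes lie far below 0 in both knockouts, whereas nearly all interferon-stimulated genes drawn are past the threshold in Ifnar1 KO and nearly all are open in Tlr7 KO. Oas2 had 0 counts in the 3 Ifnar1 KO mice and is drawn for Tlr7 KO only.

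The promoters were searched for the interferon-stimulated response element (ISRE), to which factors activated by interferon bind. Its core was searched as a pair of GAAA separated by 2 bases, on both strands, in the 250 bases before the start site, for 11503 tested genes with a RefSeq promoter of GRCm38.p6. The core was in 2.82% of all promoters, 4.63% of those of lower genes, 6.38% of those of genes at least 2-fold lower in both knockouts, 2.59% of those of higher genes and 10 of 22 (45.5%) of the interferon-stimulated genes with a promoter. The shorter interferon-gamma core, TTCNNNGAA on both strands, was in 6.09%, 7.25%, 8.33% and 5.7% of the same first 4 sets. In the 166 promoters of genes at least 2-fold higher in both knockouts the ISRE core was in 1.81% and the shorter core in 15 (9.04%), a share above that of the lower genes. Shown for lower genes are the promoters of B2m (chr2:122147437-122147686, plus strand), of the chemokine genes Cxcl10 (chr5:92348890-92349139, minus strand) and Ccl19 (chr4:42756366-42756615, minus strand) and of Trim30a (chr7:104465194-104465443, minus strand, where the match is on the other strand), with the ISRE core in capitals. A match is a description of these letters only. Cxcl10 was at 6.98, 1.4 and 7.85 CPM in WT and 0.0835 to 3.73 CPM in KO (-2.07, SE 0.71, adjusted p = 0.04, and 0.139 without WT 1 and 0.176 without WT 3), and Ccl19 at 1.27, 0.425 and 1.89 CPM against 0 to 0.347 CPM (-3.01, SE 0.70, adjusted p = 0.00651, and 0.0525 without WT 3).
B2m: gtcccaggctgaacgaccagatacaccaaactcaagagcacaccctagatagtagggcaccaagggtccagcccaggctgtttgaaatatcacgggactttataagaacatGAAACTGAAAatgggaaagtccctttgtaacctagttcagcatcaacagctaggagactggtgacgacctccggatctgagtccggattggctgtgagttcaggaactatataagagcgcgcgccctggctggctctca
Cxcl10: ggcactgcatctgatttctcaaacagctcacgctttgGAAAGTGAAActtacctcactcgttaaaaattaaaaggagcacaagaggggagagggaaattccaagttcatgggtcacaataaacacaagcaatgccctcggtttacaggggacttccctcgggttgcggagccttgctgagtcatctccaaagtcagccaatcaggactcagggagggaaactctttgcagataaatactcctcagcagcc
Ccl19: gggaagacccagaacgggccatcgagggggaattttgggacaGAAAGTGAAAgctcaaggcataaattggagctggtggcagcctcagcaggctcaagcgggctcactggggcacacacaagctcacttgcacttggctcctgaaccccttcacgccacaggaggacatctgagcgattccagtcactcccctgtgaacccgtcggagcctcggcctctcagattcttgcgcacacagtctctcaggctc
Trim30a: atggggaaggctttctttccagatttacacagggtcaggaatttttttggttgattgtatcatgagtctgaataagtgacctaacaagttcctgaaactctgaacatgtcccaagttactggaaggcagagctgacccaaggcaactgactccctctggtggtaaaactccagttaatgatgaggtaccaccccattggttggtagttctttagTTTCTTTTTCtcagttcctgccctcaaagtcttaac

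Of 31 lacrimal secretory genes 15 rose, where 16% of all genes did, and Car6 fell. The list's median was 0.62 on the log2 scale (Tlr7 KO 0.65, Ifnar1 KO 0.55). With library size only 11 rose and 4 fell, and the median was 0.24. The sum of the list, which a few members carry, was 318000, 592000 and 301000 CPM in WT and 411000 to 747000 CPM in KO. All 8 KO mice were above WT 1 and WT 3, and the groups overlapped through WT 2. Lpo, encoding the antibacterial lactoperoxidase of tears, was at 2367, 1072 and 1355 CPM in WT and between 4212 and 5014 CPM in KO (log2 fold change 1.53, SE 0.21, adjusted p = 0.000536). Pigr, the receptor that carries IgA across epithelium, was at 78, 99 and 68.7 CPM against 147 to 233 CPM (1.06, SE 0.15, adjusted p = 0.000624). Car6, a carbonic anhydrase gene of saliva and tears, was at 347, 206 and 1507 CPM in WT, the last in the WT mouse with salivary gland genes, and its log2 fold change went from -1.63 (adjusted p = 0.0303) to -0.32 (adjusted p = 0.671) without WT 3. Without WT 3 the secretory list had 9 members higher, and without WT 2 it had 22.

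Secretoglobins are small secreted proteins that pair into dimers. All 21 tested Scgb1b and Scgb2b genes lie in 1 cluster (chr7:31290508-34100837, GRCm38), of which 10 were higher, beside 16% of all genes, and none lower. Scgb2b12 was at 488, 1597 and 267 CPM in WT and between 9049 and 25944 CPM in KO (median 20517; log2 fold change 4.56, SE 0.60, adjusted p = 0.000455). The mean level was 784 CPM in WT and 18468 CPM in KO, a 23.6-fold rise. Only WT 2 was above that WT mean, so that the fold depended on this mouse. Scgb2b15 was at 3045, 3841 and 2041 CPM against 15743 to 30241 CPM (2.94, SE 0.28, adjusted p = 9.28e-05). Scgb2b7 was the more abundant by far and did not pass the test, at 74279, 157060 and 66735 CPM in WT and 84933 to 186130 CPM in KO (0.25, SE 0.31, adjusted p = 0.555). That rested on WT 2, without which Scgb2b7 was higher (0.75, adjusted p = 0.0337).

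Genes at least 2-fold higher were Scgb2b12, Scgb2b15, Scgb2b17, Scgb2b19, Scgb1b19, Scgb1b21 and Scgb1b27. The first 6 of these lie between chr7:32325286 and chr7:33528558, with the uncalled genes Scgb1b29, Scgb2b20 and Scgb1b20 among them. Scgb2b19 was at 107, 224 and 57.1 CPM in WT and 629 to 2018 CPM in KO (3.49, SE 0.50, adjusted p = 0.000617), and Scgb1b21 at 2.6, 1.4 and 1.04 CPM against 10.2 to 24 CPM (3.44, SE 0.34, adjusted p = 0.00012). The predicted gene Gm9162 at chr7:33137119-33138109, within the cluster, had 1, 2 and 3 counts in the WT mice and 73 to 230 counts in the KO mice. It was chosen after its values were seen. Since the coding sequences of the family are alike, the estimation may have divided reads among copies, and the level of a single copy is uncertain.

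**Figure D5:**
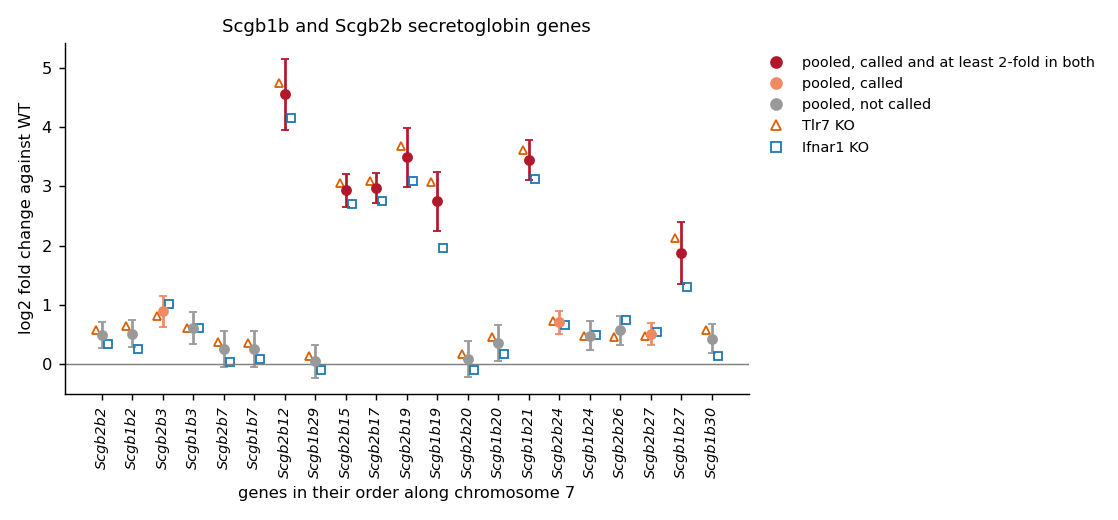
Pooled log2 fold change against WT of the 21 Scgb1b and Scgb2b genes in their order along chromosome 7, with bars of 1 SE, and the values of each genotype beside it. Scgb2b12 reaches 4.56 and Scgb2b15 2.94, while Scgb2b7 is at 0.25.

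The promoters of this family were compared position by position, without gaps, over the 250 bases before the start site (RefSeq, GRCm38.p6). Such a comparison counts bases that are only shifted as different, and so does not rank the copies by likeness. Promoters of Scgb2b12 and Scgb2b7 were identical at 86.8% of positions and differed at 33, and those of Scgb2b15 and Scgb2b17, which both rose, were 100% identical. Each of the latter matched Scgb2b2 at 72.8% of positions, a gene that was not called (log2 fold change 0.49, adjusted p = 0.102) but was higher by DESeq2 (0.47, adjusted p = 0.0154) and without WT 2 (0.78, adjusted p = 0.00306). Scgb2b12 and Scgb2b15 matched at 26.4% of positions, but long runs of the Scgb2b12 promoter below recur in that of Scgb2b15 at shifted positions. Shown are the pair of Scgb2b12 (chr7:32327246-32327495, minus strand) and Scgb2b7 (chr7:31705755-31706004, minus strand), with the bases that differ in capitals, and the promoter shared by Scgb2b15 and Scgb2b17, read at Scgb2b15 (chr7:32829654-32829903, minus strand), in lower case throughout. Scgb2b17 was at 333, 405 and 219 CPM in WT and 1760 to 3419 CPM in KO (log2 fold change 2.98, SE 0.26, adjusted p = 9.28e-05).
Scgb2b12: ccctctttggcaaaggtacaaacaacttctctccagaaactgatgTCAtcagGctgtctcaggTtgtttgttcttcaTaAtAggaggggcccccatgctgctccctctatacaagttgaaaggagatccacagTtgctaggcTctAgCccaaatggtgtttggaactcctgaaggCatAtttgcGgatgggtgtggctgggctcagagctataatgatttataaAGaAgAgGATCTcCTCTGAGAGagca
Scgb2b7: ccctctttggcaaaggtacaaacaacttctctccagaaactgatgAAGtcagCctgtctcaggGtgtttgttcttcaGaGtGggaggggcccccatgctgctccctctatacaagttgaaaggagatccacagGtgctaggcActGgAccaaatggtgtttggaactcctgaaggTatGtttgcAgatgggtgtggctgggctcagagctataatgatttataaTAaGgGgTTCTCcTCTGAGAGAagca
Scgb2b15: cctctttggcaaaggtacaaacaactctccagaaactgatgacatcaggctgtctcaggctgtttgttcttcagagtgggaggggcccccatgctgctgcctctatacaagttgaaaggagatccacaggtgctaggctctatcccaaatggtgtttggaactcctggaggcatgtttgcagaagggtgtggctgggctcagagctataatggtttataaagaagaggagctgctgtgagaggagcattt

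Of 14 exocrine gland-secreted peptide genes, which in mice act as pheromones, 8 were higher and Esp23 was lower (median log2 fold change 0.98), beside 16% of all genes higher. Esp1, the male tear pheromone gene, was at 3.56, 4.63 and 1.61 CPM in WT and between 16.5 and 106 CPM in KO (3.74, SE 0.64, adjusted p = 0.00132). Esp36 was at 0.274, 1.53 and 0.273 CPM against 4.48 to 40.5 CPM (4.56, SE 0.92, adjusted p = 0.00304) and Esp3 at 14, 14.7 and 20.4 CPM against 53 to 72.9 CPM (1.99, SE 0.13, adjusted p = 1.29e-05). No KO mouse overlapped a WT mouse for these 3 genes, where 11.5% of all genes were higher without overlap. The size of the Esp36 change depended on WT 2, its highest WT mouse. Of 10 kallikrein 1-related peptidase genes 6 were higher, and of 6 major urinary protein genes 4 were, where 16% of all genes were. Salivary glands express many of these kallikrein genes as well. Klk1b1 was at 0, 0 and 0.0547 CPM in WT, the last in WT 3, which had the most salivary Bpifa2 of all mice. It was at 0.632 to 5.27 CPM in Tlr7 KO. In Ifnar1 KO 2, the highest Ifnar1 KO mouse for Bpifa2, Klk1b1 was at 3.55 CPM. The other Ifnar1 KO mice were at 0.102 and 0.0835 CPM, near the floor of 3 counts. Scgb2a2, a secretoglobin gene on another chromosome, was at 1232, 4168 and 658 CPM against 2531 to 16601 CPM (2.35, SE 0.62, adjusted p = 0.0117, and 0.0606 without WT 1).

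Nrg1, encoding the growth factor neuregulin, was at 1.03, 0.51 and 1.56 CPM in WT and between 2.59 and 18 CPM in KO (log2 fold change 3.24, SE 0.63, adjusted p = 0.00242). Nos1, a nitric oxide synthase gene chosen after its values were seen, was at 22.8, 15.4 and 8.86 CPM against 40.3 to 87.8 CPM (2.0, SE 0.30, adjusted p = 0.000801). Neither gene overlapped between the groups, where 11.5% of all genes were higher without overlap.

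Of 18 lipid synthesis genes 9 rose and 4 fell (median log2 fold change 0.53), beside 16% of all genes higher and 18.4% lower, so that the count of falls was near the background. Thrsp, a regulator of fatty acid synthesis, was at 5, 0.467 and 3.23 CPM in WT and between 24.6 and 51.9 CPM in KO (3.59, SE 0.47, adjusted p = 0.000448). Dgat2, which completes triglyceride synthesis, was at 32.3, 28.1 and 20.8 CPM against 66.6 to 90.9 CPM (1.53, SE 0.14, adjusted p = 9.28e-05), and Fasn, the fatty acid synthase gene, at 29.6, 22.6 and 25.6 CPM against 35.6 to 82 CPM (1.24, SE 0.25, adjusted p = 0.00311). The groups were apart for all 3, where 11.5% of all genes were higher without overlap. Among the members that fell were Sqle of the cholesterol pathway and the elongase gene Elovl6 (2.29, 1.32 and 2.13 CPM against 0.375 to 1.17 CPM, -1.44, SE 0.29, adjusted p = 0.00292). Slc27a2, an importer and activator of fatty acids outside the list and chosen after its values were seen, was at 546, 363 and 312 CPM against 795 to 1293 CPM (1.42, SE 0.19, adjusted p = 0.000501). Of 10 adipocyte genes 0 were called by edgeR or DESeq2, and 0 had an unadjusted p under 0.05. Their summed level was 25.6 to 47.2 CPM in WT and 9.31 to 52.9 CPM in KO. There were 9 higher members also without WT 1, without WT 3 and without the 3 mice with salivary gland genes, and 2, Thrsp and Dgat2, with library size only. Of the 4 that fell, Elovl6 alone was called without WT 1 or without WT 3.

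Of 20 protein folding genes of the endoplasmic reticulum 18 were higher, beside 16% of all genes, and none lower, at a median of 0.54 on the log2 scale (Tlr7 KO 0.52, Ifnar1 KO 0.58) and a range of 0.20 to 0.93. The list's level relative to WT ran from 0.26 in Ifnar1 KO 1 to 0.77 in Ifnar1 KO 3. Hspa5, encoding the chaperone BiP, was at 532, 562 and 528 CPM in WT and between 674 and 935 CPM in KO (0.56, SE 0.11, adjusted p = 0.00293). Qsox1, which forms disulfide bonds in secreted proteins, was at 168, 194 and 146 CPM against 301 to 342 CPM (0.93, SE 0.10, adjusted p = 0.000183), and Sel1l, of the pathway that degrades misfolded proteins, at 88.2, 93.2 and 91.5 CPM against 142 to 169 CPM (0.76, SE 0.08, adjusted p = 0.000159). Every KO mouse was above every WT mouse for these 3 genes, as for 11.5% of all genes. Hsp90b1 (0.20, adjusted p = 0.109) and Pdia4 (0.33, adjusted p = 0.0664) were the members not called. The call of this list depended on the scaling, since with library size only a sole member was higher, Qsox1, and the median was 0.14. The number of higher members was 12 without WT 1, 11 without WT 3 and 12 without the 3 mice with salivary gland genes.

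The endoplasmic reticulum stress response element (ERSE), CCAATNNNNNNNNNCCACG, was searched in the same promoters on both strands, a choice made after the values were seen. It was in 22 of 11503 promoters (0.191%), in 12 of those of higher genes (0.622%) and in 2 of those of lower genes (0.0935%). Of the folding genes that rose, 6 of 14 with a promoter held it (Calr, Canx, Pdia6, Dnajc3, Creld2 and Hspa5). Shown are the promoters of Hspa5 (chr2:34771840-34772089, plus strand), Pdia6 (chr12:17266339-17266588, plus strand) and Creld2 (chr15:88819396-88819645, plus strand, where the match is on the other strand), with the element in capitals. Pdia6, a disulfide isomerase gene, was at 83.8, 92 and 82.5 CPM in WT and 82.7 to 139 CPM in KO (log2 fold change 0.52, SE 0.13, adjusted p = 0.0105, and 0.0524 without WT 1 and 0.0527 without WT 3), its lowest KO value being that of Ifnar1 KO 1. Creld2 was at 53.6, 65.6 and 49.3 CPM against 55 to 103 CPM (0.50, SE 0.17, adjusted p = 0.0357, and 0.128 without WT 1 and 0.158 without WT 3).
Hspa5: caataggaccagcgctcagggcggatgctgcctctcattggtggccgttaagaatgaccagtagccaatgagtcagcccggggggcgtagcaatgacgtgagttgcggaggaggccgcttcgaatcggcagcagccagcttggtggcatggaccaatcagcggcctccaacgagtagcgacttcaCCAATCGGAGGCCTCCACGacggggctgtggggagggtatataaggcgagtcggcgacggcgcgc
Pdia6: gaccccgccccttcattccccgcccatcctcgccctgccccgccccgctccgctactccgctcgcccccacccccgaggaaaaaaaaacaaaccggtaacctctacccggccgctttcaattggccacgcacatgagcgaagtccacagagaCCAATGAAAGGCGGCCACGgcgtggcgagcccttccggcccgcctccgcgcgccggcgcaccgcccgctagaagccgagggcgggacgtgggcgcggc
Creld2: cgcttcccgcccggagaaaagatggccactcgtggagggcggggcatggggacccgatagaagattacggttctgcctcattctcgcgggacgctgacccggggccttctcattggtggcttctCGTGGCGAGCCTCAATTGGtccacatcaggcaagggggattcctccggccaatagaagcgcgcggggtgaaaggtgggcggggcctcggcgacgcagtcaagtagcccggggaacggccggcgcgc

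Of 16 acinar identity and secretion genes 4 rose (Rab27a, Aqp5, Chrm3 and Bhlha15) and 4 fell (Slc12a2, Atp1b1, Ano1 and Kcnn4), the latter all encoding ion pumps, channels or carriers of fluid secretion, beside 16% of all genes higher and 18.4% lower. With library size only these 4 fell and none of the 4 rises was called. Without WT 1 the rises called were Bhlha15 and Rab27a, and Chrm3 also lost its call without WT 3 (adjusted p = 0.133) and with the second count table (0.213). Bhlha15, the transcription factor gene that sets up secretory cells, was at 446.5, 527 and 433 CPM in WT and between 624.8 and 860 CPM in KO (log2 fold change 0.56, SE 0.12, adjusted p = 0.00421), and lost its call with library size only (0.16, adjusted p = 0.481). Atp1b1, a sodium pump subunit gene, was at 13.8, 9.94 and 19.4 CPM against 5.55 to 8.73 CPM (-0.99, SE 0.18, adjusted p = 0.00168). Aqp5 was at 90.3, 131 and 114 CPM against 136 to 168 CPM (0.39, SE 0.11, adjusted p = 0.0166, and 0.108 without WT 1), and its log2 fold change was 0.01 with library size only.

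Of 18 duct and myoepithelial genes 8 fell and Krt8 and Krt18 rose (median log2 fold change -0.60). Of all genes 18.4% were lower and 16% higher, so that the count of rises did not exceed the background. Neither rise was called without WT 1, and with library size only 11 members fell and neither rose (median -1.02). Krt18 also lost its call with RLE scaling (adjusted p = 0.0502) and without WT 3 (0.085). Of the myoepithelial genes, Krt14 was at 17.1, 15 and 14.3 CPM in WT and between 5.69 and 8.36 CPM in KO (-1.13, SE 0.11, adjusted p = 9.28e-05), Acta2 at 34.5, 24.8 and 30.3 CPM against 16.5 to 24.3 CPM (-0.57, SE 0.12, adjusted p = 0.0037), and Cnn1 at 7.7, 7.18 and 5.41 CPM against 3.9 to 4.93 CPM (-0.62, SE 0.12, adjusted p = 0.0029), without overlap for any. Of all genes, 9.94% were lower without overlap. Krt8, a keratin gene of simple epithelium, was at 190, 214 and 208 CPM against 230 to 309 CPM (0.40, SE 0.10, adjusted p = 0.00874), and turned to -0.02 with library size only. Fibroblast and matrix genes were lower in 5 of 16 cases, Dcn, Ccn2, Pdgfrb, Postn and Pdgfra, beside 18.4% of all genes. Without WT 2 the count was 9, and the median moved from -0.22 to -0.54. Ccn2, a matricellular growth factor gene, was at 11.8, 10.3 and 11.3 CPM against 2.37 to 4.85 CPM (-1.69, SE 0.18, adjusted p = 0.000159), while the collagen gene Col1a1 overlapped (1.7 to 12.9 CPM in WT and 5.81 to 13.3 CPM in KO, 0.16, SE 0.41, adjusted p = 0.794).

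Of 18 circadian clock genes 7 were higher (Nr1d1, Nr1d2, Tef, Per3, Bhlhe41, Dbp and Cry2) and 3 lower, Arntl and Nfil3 among them, beside 16% of all genes higher and 18.4% lower, so that the count of falls was near the background. With library size only 3 were higher (Nr1d1, Dbp and Tef) and 5 lower, and Nr1d2 (log2 fold change 0.37, adjusted p = 0.312) and Per3 (0.69, adjusted p = 0.175) were among those that lost their call. Dbp, a clock output gene, was at 17.4, 2 and 6.78 CPM in WT and between 27.7 and 55.4 CPM in KO (log2 fold change 2.43, SE 0.47, adjusted p = 0.00227). Nr1d1, a repressor of Arntl, was at 8.08, 2.76 and 5.6 CPM against 15.7 to 30.2 CPM (1.93, SE 0.29, adjusted p = 0.000712). Arntl, the core activator, was at 1.92, 11.5 and 2.38 CPM against 0.459 to 0.886 CPM (-3.16, SE 0.43, adjusted p = 0.000507), and without WT 2 its log2 fold change was -1.88 (adjusted p = 0.00025). WT 2 was the lowest WT mouse for Dbp and Nr1d1 and the highest for Arntl, and no KO mouse overlapped a WT mouse for the 3 genes. Of all genes, 9.94% were lower and 11.5% higher without overlap. The time of day at which each gland was taken was not given in the sources used here, and its part in these differences was not tested. Without WT 2 the lower genes were 2, Nfil3 being lost (adjusted p = 0.0861).

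Lists of general cell functions depended on the scaling and on single WT mice. Of 20 mitochondrial respiration genes 8 rose (median log2 fold change 0.20), beside 16% of all genes. The rises were 2 without WT 1, 2 without WT 3 and 13 without WT 2, and with library size only no rise was called and 3 members fell (median -0.18). Of 20 ribosomal protein genes 6 fell (median -0.20), beside 18.4% of all genes, and 16 fell with library size only. Rps9 was at 292, 355 and 294 CPM in WT and between 189 and 222 CPM in KO (-0.60, SE 0.08, adjusted p = 0.000584). Mcm5 was the sole call among 15 proliferation genes and was lower. It lost its call without WT 1 (adjusted p = 0.156) and without WT 3 (0.178). Fos, Egr1 and Zfp36 of 15 stress and immediate early genes were lower, near the 18.4% of all genes. Of these Fos alone was called without WT 1, and none of them without WT 3. By edgeR 0 of 8 salivary gland genes were called (1 at an unadjusted p under 0.05, and Egf by DESeq2) and 0 of 12 skeletal muscle genes (0 at an unadjusted p under 0.05, and Tnni2 by DESeq2). Single mice decided both counts. Without Ifnar1 KO 2, 4 salivary gland genes were lower, and Egf was higher without WT 2, without Tlr7 KO 2 and with the genotypes weighted equally. All 12 muscle genes were lower without Tlr7 KO 4 and with the replicate number as a block, and 4 were with the genotypes weighted equally.

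The test of Tlr7 KO against Ifnar1 KO found 95 genes (0.603%) with an adjusted p under 0.05, and 1905 with an unadjusted p under 0.05. The pooled test counts the difference between the knockouts as spread and so tends to leave out genes that differ, and a p that misses the threshold does not show that the changes were alike. Of the 2893 lower genes 5 were among the 95, named here after their values were seen, namely Pvr, Zfp36l2, Ighg2b, Ighg2c and Ighv1-55. Ighg2c, an IgG heavy chain gene, was at 50.3, 29 and 41 CPM in WT, 0.0379 to 0.632 CPM in Tlr7 KO and 4.76 to 24.4 CPM in Ifnar1 KO (difference -6.22 on the log2 scale, adjusted p = 0.00267), and Ighg2b at 71.1, 47.7 and 99.8 CPM, 1.4 to 3.27 CPM and 13.7 to 40.8 CPM (-3.47, adjusted p = 0.00267). In the pooled test Ighg2c stayed close to the threshold (adjusted p = 0.0464) and lost its call without WT 1 (0.128), WT 2 (0.0521) or WT 3 (0.107). Zfp36l2 went the other way, at 24.7 to 31.6 CPM in WT, 15 to 19.7 CPM in Tlr7 KO and 6.93 to 11.6 CPM in Ifnar1 KO (difference 0.84, adjusted p = 0.0394). Pooled calls of Pvr and Ighv1-55 were lost without WT 1 (adjusted p = 0.0821 and 0.082) and without WT 3 (0.079 and 0.137). That of Ighg2b was lost without WT 3 (0.0762).

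Of the 2517 higher genes 8 differed between the knockouts, Coq10b, Hacd2, Lmtk2, Adora1, Atxn2, BC051076, Ccl28 and Slc36a1os, likewise named after their values were seen. BC051076 had 0, 1 and 1 counts in the WT mice, 122 to 263 in Tlr7 KO and 1, 15 and 1 in Ifnar1 KO, and lost its pooled call without WT 1 (adjusted p = 0.0626) or WT 3 (0.0641). Ccl28, a mucosal chemokine gene, was at 62.9, 48.1 and 53.7 CPM in WT, 135 to 160 CPM in Tlr7 KO and 57 to 99 CPM in Ifnar1 KO (difference 1.07, adjusted p = 0.0288), and its pooled call (adjusted p = 0.0196) was lost without WT 1 (0.0521), WT 2 (0.0563) or WT 3 (0.0745). Adora1, an adenosine receptor gene, was at 0.342, 0.68 and 0.738 CPM, 4 to 6.8 CPM and 1.19 to 2.57 CPM (difference 1.5, adjusted p = 0.0464). Pooled calls of Atxn2 and Lmtk2 were lost without WT 1 (adjusted p = 0.0575 and 0.0607) and without WT 3 (0.0775 and 0.0762). That of Coq10b was lost without WT 3 (0.061). With library size only, Atxn2, Lmtk2, Coq10b, Hacd2, Slc36a1os and Ccl28 were not called. Mup6, a urinary protein gene, was the exception to the shared direction, at 4.59, 9.13 and 7.71 CPM in WT, 48.1 to 60.3 CPM in Tlr7 KO and 5.97 to 7.89 CPM in Ifnar1 KO (log2 fold change 2.91 and -0.04, difference 2.95, adjusted p = 6.3e-05). The number of genes that differed was itself unstable, at 16 without Ifnar1 KO 1, 218 without Ifnar1 KO 2 and 365 with DESeq2.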

How the data were processed

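Total RNA of whole lacrimal glands was sequenced on an Illumina HiSeq instrument. The authors deposited a table of expected counts per gene, with 19058 genes. The study's methods describe gene-level counts made with salmon and tximport within bcbio, and that this table holds them is an inference. Although called normalized, this table has whole numbers whose totals and size factors are unequal between mice, and was used as estimated counts. Raw counts per gene in another table that the authors deposited served as an alternative. The submitters' processing notes name HISAT2 2.1.0 and mm10 without a role. A single column, named as a further Ifnar1 KO library, matched no sample and was not used. The study's methods say that an Ifnar1 KO mouse was left out because it grouped with WT in expression and inflammation. Precision is limited by the counts of 20512315 to 28814250 per mouse and above all by the number of mice, since replicates are separate mice and p-values measure the spread between them. Floors cover counting error only.

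Genes whose counts summed to 30 or more were fitted with edgeR 4.0.16 (limma 3.58.1, R 4.3.3), with TMM scaling and the quasi-likelihood test, knockout against WT over 11 mice, without covariates. Adjusted p are Benjamini-Hochberg values over all genes tested, with a threshold of 0.05. A second fit with 3 groups gave the change in each genotype and the difference between the knockouts. A gene was called when the pooled test passed and both genotypes moved the same way. SE is the log2 fold change divided by the square root of the F statistic. The targeted genes also had a two-sided exact permutation test over the 165 assignments of mice. The fits were tested on simulated data. DESeq2 1.42.0, other scalings and filters, the replicate number as a block and leaving out each mouse were alternatives. Equal weighting of the genotypes, also run, used the fit with 3 groups. Promoters were read from RefSeq (GRCm38.p6), by gene symbol.

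Gene lists and the question were chosen with earlier results of these data known. Named were Tlr7, Ifnar1 and defining markers, per direction the 10 largest changes among genes at least 2-fold changed in both knockouts without overlap and averaging 10 CPM or more where they were high (no predicted or immunoglobulin variable genes), per direction the 3 most abundant called genes, and per list the 3 most abundant members and the called member with the smallest adjusted p in each direction. Any other gene in the text was picked with its values known. Sums over salivary and muscle genes showed which mice carried other tissue, and the fit without the 3 mice with salivary gland genes was chosen after seeing the data. A few members of the gene lists, counted in the lists, are not reported here by name.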

Additional observations from a re-analysis of the deposited data

Results flagged for a closer look

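For each gene the 5 Tlr7 KO mice and the 8 pooled knockout mice were tested for a mouse apart from the rest on the log2 CPM scale. Of 296 such groups 25 were picked out, where chance picks about 1 in 20. The 5 mice are among the 8, which mix the genotypes, so that this rate is only a rough guide. The value given is the gap of the outermost mouse to its neighbour as a share of the range. In Tlr7 KO 2, the highest of the Tlr7 KO mice, it was 0.853 for Vcam1, 0.843 for Fcrla, 0.778 for Icam1, 0.734 for H2-K1, 0.731 for Unc93b1 and 0.714 for Foxp3. Tlr7 KO 2 was also the lowest of the 8 knockout mice for Dbp (0.618) and Ndufs1 (0.53, and 0.71 among the Tlr7 KO mice). In Tlr7 KO 5, which was the highest of the Tlr7 KO mice, the share was 0.865 for Cxcl12 and 0.717 for Scgb1b19, and as the lowest it was 0.736 for Sel1l, 0.719 for Fasn and 0.71 for Fmo5. Among all knockout mice Tlr7 KO 5 was highest for Dcn (0.591) and for Scgb2b7 (0.529). Ifnar1 KO 3 was the lowest of the knockout mice for Alox12e (0.726), Ighm (0.632) and Cxcr4 (0.575). Ifnar1 KO 1 was the lowest for Pdia6 (0.747) and Car6 (0.613) and the highest for Ltbr (0.614), and Ifnar1 KO 2 was the lowest for Scgb2a2 (0.627). The remaining pair were Acta1, highest in Tlr7 KO 4 (0.935), and Eomes, lowest in Tlr7 KO 3 (0.855).

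The change against WT differed between the knockouts for 18 of the genes named, by edgeR's quasi-likelihood test of Tlr7 KO against Ifnar1 KO. The log2 difference was positive, Tlr7 KO being the higher, for Irf7 (3.66, adjusted p = 0.0163), Ifit3 (3.01, 0.0481), Mup6 (2.95, 6.3e-05), BC051076 (5.02, 0.00301), Adora1 (1.5, 0.0464), Ccl28 (1.07, 0.0288), Ifi27 (0.97, 0.0302), Zfp36l2 (0.84, 0.0394) and Hacd2 (0.59, 0.0479). It was negative for Ighg2c (-6.22, 0.00267), Ighg2b (-3.47, 0.00267), Ighv1-55 (-1.34, 0.0186), Pvr (-0.84, 0.00851), Coq10b (-0.75, 0.0327), Slc36a1os (-0.56, 0.0461), Lmtk2 (-0.41, 0.0479) and Atxn2 (-0.40, 0.0414). Oas2, with 14 to 49 counts in Tlr7 KO mice and none in Ifnar1 KO mice, differed with an adjusted p of 0.0456.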

How the results depend on the processing

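Of 169 named genes that were called, 86 kept the same call under every alternative run. Calls changed for 28 with library size only, 36 with the replicate block, 46 without WT 1, 49 without WT 3, 5 without WT 2 and 57 without the 3 mice with salivary gland genes, against 3 with DESeq2 and 3 with the second count table. With library size only, 4581 genes were lower and 200 higher in both knockouts, 2751 and 106 at least 2-fold, and 40 differed between the knockouts. Chrm3 (-0.0533), Krt18 (-0.107), Krt8 (-0.019), Atp5b (-0.0221) and Ndufs1 (-0.0778) then changed sign, since the median of all genes fell to -0.44. At an adjusted p under 0.01, 1547 were lower, 1311 higher, 1037 at least 2-fold lower, and 11 differed between the knockouts. With a summed count of 30 asked of the WT mice alone, 154 were at least 2-fold higher, since genes low in WT were left out. With DESeq2, 365 differed between the knockouts, and the cause was not tested. Leaving out each mouse in turn gave 1666 to 3364 lower genes, 1466 to 3090 higher genes, 971 to 2011 at least 2-fold lower, 203 to 300 at least 2-fold higher and 16 to 285 that differed between the knockouts, with fewer mice in each fit. The lowest 2-fold counts were those without WT 1 for lower and without WT 3 for higher genes. Without the 3 mice with salivary gland genes, 1334 were lower, 1246 higher, 777 at least 2-fold lower, and 22 differed, with a single Ifnar1 KO mouse left. Replicate numbers were shared across groups. Deviations of same-numbered mice from their group means had r from -0.38 to 0.27 over 9 pairs. Of these 2 were over 0.1, Ifnar1 KO 2 with Tlr7 KO 2 (0.266) and Ifnar1 KO 3 with Tlr7 KO 3 (0.189), beside 8 of 30 other pairs. Deviations from the mean of 3 mice are tied to each other, so this cannot decide whether the numbers pair mice. With the replicate block, 1932 genes were lower, 1592 were higher and 4 differed between the knockouts. Depth limited genes near the floor of 3 counts.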
